A study of Mus musculus with 3 samples.

Results

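Oxidative phosphorylation was described in 3 sorted immune populations through 105 protein-coding genes of 37224 gene identifiers in the deposited files, 92 encoded in the nucleus and 13 in the mitochondrial genome. The members were chosen by gene name alone: the mitochondrial Nd, Co, Cytb and Atp genes, and the nuclear Nduf, Cox4 to Cox8, Uqcr, Atp5 and Sdh genes, with the muscle-type isoform Cox6a2 left out. The names also brought in 8 complex I assembly factors (Ndufaf genes) and the complex IV subunits Ndufa4 and Ndufa4l2, which carry complex I names. A level of 5 CPM or more in any library, in counts scaled to library size with TMM factors, was reached by 96 members, 84 nuclear and 12 mitochondrial. Medians and counts of members below run over those 96, and the 9 others are named with their counts.

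All cells came from the intestinal epithelium of RAG-2 null mice, which lack a recombinase subunit needed to assemble T and B cell receptors, and no RAG-2 sufficient mouse was compared. The iCD8a library was made from cells positive for CD45, the surface marker of leukocytes, and for CD8α. The ILC1 library was made from NKp46-positive, NK1.1-positive group 1 innate lymphoid cells, and the CD11b+ library from CD45-positive myeloid cells that carried CD11b and not CD8α. There was 1 library per population, so differences between populations could not be tested against any spread between replicates. The sources used here give neither the age of the mice nor how many were behind a library.

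Counts on genes totalled 21678113 in iCD8a, 22181660 in ILC1 and 30511296 in CD11b+. The sorting markers were highest in the population named for them: Cd8a at 2636 CPM in iCD8a, Ncr1 (NKp46) at 396 CPM in ILC1 and Itgam (CD11b) at 845 CPM in CD11b+. Itgam was also counted at 362 CPM in iCD8a and 187 CPM in ILC1. Csf1r and Lyz2, markers of myeloid cells, were highest in CD11b+. They belong to a list of markers of other cells, of which 6 were tested by the counting rule given below. Of these, 3 were higher and 3 lower in iCD8a than in CD11b+ (16.3% and 20.1% of all genes), with log2 ratios from −9.53 to 4.12. Against ILC1, 2 were higher and 2 lower in iCD8a (8.67% and 9.87% of all genes), with log2 ratios from −5.27 to 7.84. Some markers of other cells were thus far higher in iCD8a than in the other libraries. In ILC1, 0 were higher and 3 lower than in CD11b+ (16.5% and 20.3% of all genes). The purity of the sorts was not tested. Folds are ratios of normalised counts, and the range after each is a 95% exact counting interval that covers counting error only. In bulk libraries such as these, fewer cells of a type and less RNA per cell cannot be told apart.

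Oxidative phosphorylation passes electrons from NADH and succinate through complexes I to IV of the inner mitochondrial membrane to oxygen, and complex V uses the resulting proton gradient to make ATP. The mitochondrial genome encodes the hydrophobic core subunits of complexes I, III, IV and V, and the nucleus encodes all other subunits, including the whole of complex II. The mitochondrial genes are transcribed inside the organelle as long polycistronic RNAs by a dedicated polymerase, and the nuclear genes by RNA polymerase II, so both genomes have to be expressed for the complexes to be built.

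The nuclear members that stood apart between iCD8a and ILC1 are introduced here by the 120 bases upstream of their annotated starts, because promoters of respiratory genes are known for sites of NRF-1, of ETS-family factors such as GABP, and of YY1. Sequences are from RefSeq (GRCm38.p6), run 5′ to 3′ on the gene's strand, and capitals mark a match on either strand to the NRF-1 letters (GCGCA, then 1 free base, then GCGC) or to the ETS letters CCGGAAG. The windows lie at chr6:24527691-24527810 (minus strand) for Ndufa5, chr4:123718187-123718306 (minus strand) for Ndufs5, chr13:73328483-73328602 (minus strand) for Ndufs6 and chr11:120098814-120098933 (plus strand) for Ndufaf8.
Ndufa5: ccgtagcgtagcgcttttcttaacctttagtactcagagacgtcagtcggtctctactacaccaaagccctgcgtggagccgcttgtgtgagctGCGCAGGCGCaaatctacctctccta
Ndufs5: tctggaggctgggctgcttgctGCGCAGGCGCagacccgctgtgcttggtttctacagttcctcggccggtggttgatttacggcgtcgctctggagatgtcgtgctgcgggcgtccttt
Ndufs6: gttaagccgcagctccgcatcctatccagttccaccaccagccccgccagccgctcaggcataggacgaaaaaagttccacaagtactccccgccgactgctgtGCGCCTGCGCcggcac
Ndufaf8: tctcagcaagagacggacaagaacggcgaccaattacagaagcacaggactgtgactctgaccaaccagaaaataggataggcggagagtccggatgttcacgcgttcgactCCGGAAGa

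A match is a run of letters and not a measured binding site. Of the 92 nuclear members, 74 had an entry in the promoter table, which spans 250 bases before to 50 after each start. The NRF-1 letters were found in 19 of the 74 (25.7%), in 12.1% of 8563 protein-coding genes that passed 5 CPM in some library, and in 5.19% of all 27025 entries. The ETS letters were found in 18 members (24.3%) and in 21.4% of the expressed genes. The YY1 letters AAGATGGCG were found in 8 members (10.8%) and in 3.97% of the expressed genes. Members with and without the NRF-1 letters had near-equal median log2 ratios between libraries: 0.54 over 19 members with them and 0.57 over 51 without them for iCD8a over ILC1, and −0.63 over both groups for ILC1 over CD11b+.

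The mitochondrially and nuclear-encoded members were ordered differently across the libraries. Mitochondrially encoded members made up 1.56% of gene counts in iCD8a (Wilson 95% interval 1.56 to 1.57), 2.01% in ILC1 (2.01 to 2.02) and 9.11% in CD11b+ (9.10 to 9.12). Nuclear-encoded members made up 0.687% in iCD8a (0.684 to 0.691), 0.477% in ILC1 (0.475 to 0.480) and 0.630% in CD11b+ (0.628 to 0.633). The mitochondrial share was thus lowest and the nuclear share highest in iCD8a, and the ILC1 library had the lowest nuclear share. The denominator of the nuclear share includes the mitochondrial counts, which were a larger part of CD11b+, so its order between iCD8a and CD11b+ is uncertain. In TMM-scaled sums the nuclear members were highest in CD11b+, at 6818 CPM, with 6304 in iCD8a and 4813 in ILC1. Counts of mitochondrially over nuclear-encoded members, which need no scaling between libraries, stood at 2.28 in iCD8a (exact interval 2.26 to 2.29), 4.22 in ILC1 (4.19 to 4.24) and 14.5 in CD11b+ (14.4 to 14.5). This ratio was 1.85-fold lower in iCD8a than in ILC1, 6.35-fold lower in iCD8a than in CD11b+ and 3.43-fold lower in ILC1 than in CD11b+.

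**Figure D1:**
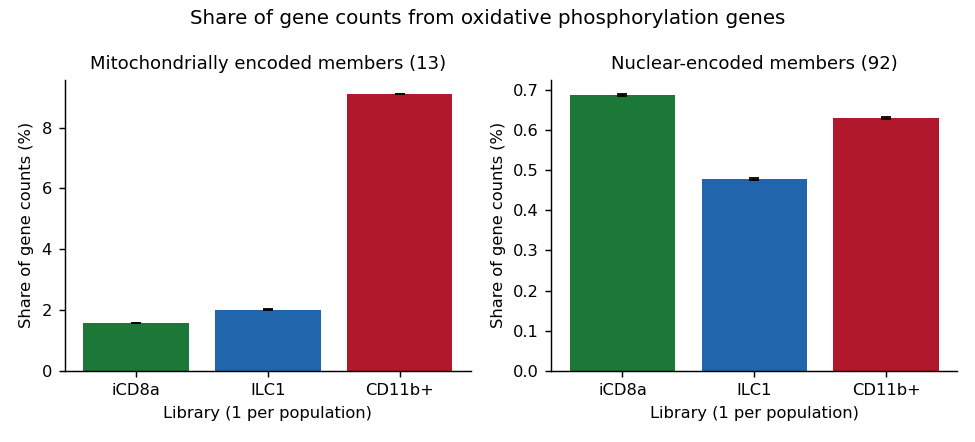
Share of gene counts (percent, vertical axes from 0) taken by the 13 mitochondrially encoded members (left) and the 92 nuclear-encoded members (right) in the iCD8a, ILC1 and CD11b+ libraries, with Wilson 95% intervals of counting error. The mitochondrial bars stand at 1.56% in iCD8a and 2.01% in ILC1, against 9.11% in CD11b+, while the nuclear bars lie between 0.477% and 0.687%, lowest in ILC1.

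Each of the 12 counted mitochondrial transcripts was far lower in both iCD8a and ILC1 than in CD11b+. The rule for counting a gene as higher or lower asked for a fold of 2 or more, an interval whose bound nearest to 1 reached 1.5, and 5 CPM or more in the library with more. By this rule 12 of 12 were lower in iCD8a than in CD11b+, against 20.1% of 11063 genes tested, and 12 of 12 were lower in ILC1 than in CD11b+, against 20.3% of genes. The median of their log2 ratios was −2.88 for iCD8a over CD11b+, where that of all genes tested was 0.08, and −2.45 for ILC1 over CD11b+, where it was 0.04. They are cut from shared precursor RNAs and are not independent measurements of each other.

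Between iCD8a and ILC1 the mitochondrial members lay close together and below 1. None of the 12 passed the rule in either direction, where 9.87% of all genes were counted as lower in iCD8a and 8.67% as higher. Their folds ran from 0.63 for mt-Nd4 to 0.937 for mt-Nd3, with a median log2 ratio of −0.53. The value for mt-Nd3 changed direction with the scaling, at 0.04 on the log2 scale without TMM factors, and the other 11 stayed below 0 under all 5 scalings tried.

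Complex IV genes took 48.6% of the counts of the mitochondrial members in iCD8a, 46.3% in ILC1 and 45.7% in CD11b+. The mt-Co1 gene, which encodes the catalytic subunit that holds the oxygen-binding site, had 4137 CPM in iCD8a, with 5711 in ILC1 and 24297 in CD11b+. It was 5.87-fold lower in iCD8a (5.84 to 5.91) and 4.25-fold lower in ILC1 (4.23 to 4.28) than in CD11b+. The copper-binding subunit gene mt-Co2 had 1158 (iCD8a), 1535 (ILC1) and 8872 (CD11b+) CPM, and mt-Co3, a further core subunit, had 1685 (iCD8a), 2153 (ILC1) and 11889 (CD11b+) CPM. In all 3 the CD11b+ library was high and the other libraries lay close to each other.

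The remaining complexes followed the same order. The apocytochrome b gene mt-Cytb of complex III had 1170 CPM in iCD8a, with 1765 in ILC1 and 10026 in CD11b+. The complex V subunits mt-Atp6 and mt-Atp8, carried on a shared messenger, had 1979 and 530 CPM in iCD8a, 2859 and 759 CPM in ILC1, and 13680 and 3268 CPM in CD11b+. Relative to transcript length, mt-Atp6 had the highest level of all mitochondrial members in each library, at 2906 CPM per kilobase in iCD8a, 4199 in ILC1 and 20088 in CD11b+.

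Among complex I genes, which encode the proton-pumping membrane arm, mt-Nd1 had 785 CPM in iCD8a, with 1146 in ILC1 and 6262 in CD11b+. The mt-Nd2 gene had 544 (iCD8a), 805 (ILC1) and 4420 (CD11b+) CPM, and mt-Nd4 had 1117 (iCD8a), 1773 (ILC1) and 9778 (CD11b+) CPM. They were lower in iCD8a than in CD11b+ by 7.98-fold for mt-Nd1, 8.12-fold for mt-Nd2 and 8.75-fold for mt-Nd4. The transcript of mt-Nd3 had the widest gap, at 118 CPM in iCD8a, with 126 in ILC1 and 1100 in CD11b+, 9.35-fold lower in iCD8a (8.99 to 9.72) and 8.76-fold lower in ILC1 (8.43 to 9.11) than in CD11b+.

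The complex I genes mt-Nd5 and mt-Nd6 had the narrowest gaps to CD11b+. The mt-Nd5 transcript had 863 CPM in iCD8a, with 1287 in ILC1 and 3794 in CD11b+, which is 4.40-fold lower in iCD8a (4.33 to 4.46) and 2.95-fold lower in ILC1 (2.91 to 2.99). The mt-Nd6 transcript, the one member encoded on the other strand of the mitochondrial genome, had 265 (iCD8a), 367 (ILC1) and 1178 (CD11b+) CPM, 4.45-fold lower in iCD8a (4.33 to 4.57) and 3.21-fold lower in ILC1 (3.13 to 3.29). Within the mitochondrial members, mt-Nd5 took 6.01% (iCD8a), 6.34% (ILC1) and 3.85% (CD11b+) of counts, and mt-Nd6 took 1.85% (iCD8a), 1.81% (ILC1) and 1.20% (CD11b+). Without these genes, the median log2 ratio over the other 10 was −2.97 (iCD8a over CD11b+) and −2.46 (ILC1 over CD11b+). The genes lie next to each other on opposite strands, and with the strand setting not given, reads from one and antisense RNA of the other cannot be told apart.

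**Figure D2:**
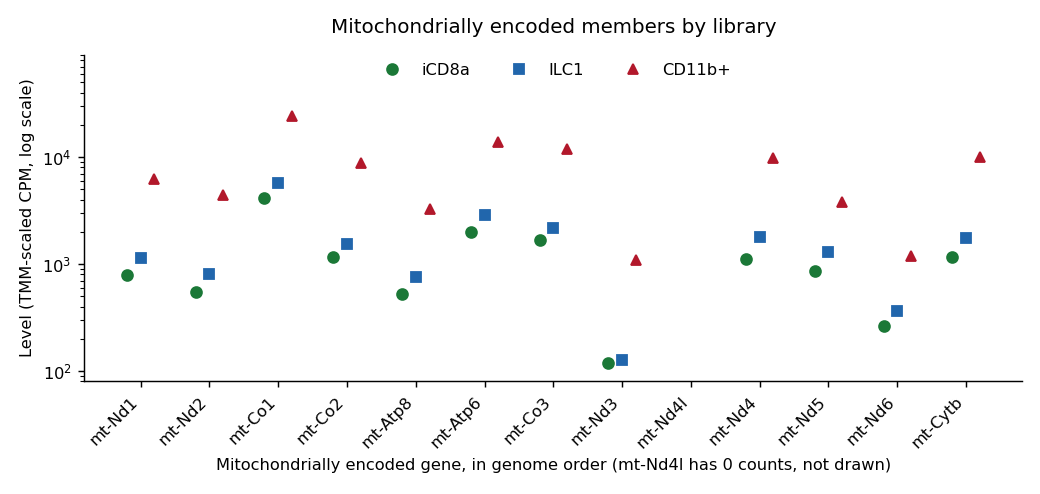
Level of each mitochondrially encoded member (TMM-scaled CPM, logarithmic vertical axis) in the iCD8a, ILC1 and CD11b+ libraries, 1 point per library, with genes in their order on the mitochondrial genome. CD11b+ lies above the other libraries for all 12 drawn genes, and the gap is narrowest for mt-Nd5 and mt-Nd6.

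Genomic copies limit how exactly these levels can be read. In the GENCODE mouse transcripts (GRCm38), all 50-base windows of mt-Co2 and 99.9% of those of mt-Co3, 99.5% of mt-Atp6, 98.0% of mt-Nd3, 62.2% of mt-Nd4 and 51.1% of mt-Co1 also occur in another annotated gene. By contrast mt-Cytb, mt-Nd1, mt-Nd6 and mt-Atp8 had no shared window, and they showed the same order of libraries. The gene most similar to mt-Co2, mt-Co3, mt-Atp6, mt-Nd3, mt-Nd4 or mt-Co1 has no identifier in the deposited files.

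The thirteenth gene, mt-Nd4l, a small complex I membrane subunit, had 0 counts in all 3 libraries. The floor of 3 counts equals 0.127 CPM (iCD8a), 0.136 CPM (ILC1) and 0.106 CPM (CD11b+), but it bounds only reads that could be placed. Of its windows 98.8% are shared with Gm10222, a pseudogene that does have an identifier in the files, with 0 (iCD8a), 0 (ILC1) and 1 (CD11b+) counts. The sequence is shown because it bears on that 0. It lies at chrM:9877-10173 (plus strand, GRCm38), and capitals mark the run of 294 bases identical to Gm10222 at chr1:24612407-24612700 (minus strand).
mt-Nd4l: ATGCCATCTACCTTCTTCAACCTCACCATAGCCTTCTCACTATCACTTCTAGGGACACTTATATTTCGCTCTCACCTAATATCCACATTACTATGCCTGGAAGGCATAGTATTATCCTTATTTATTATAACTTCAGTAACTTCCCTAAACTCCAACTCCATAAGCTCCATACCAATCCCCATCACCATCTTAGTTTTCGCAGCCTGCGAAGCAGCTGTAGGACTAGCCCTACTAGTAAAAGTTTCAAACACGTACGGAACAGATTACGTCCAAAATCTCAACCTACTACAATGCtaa
Of its 297 bases only the stop codon falls outside the identical run, so a read within the run cannot be placed by its sequence alone. Reads placed at several positions were 26.9% of everything tallied in iCD8a, 34.5% in ILC1 and 30.5% in CD11b+. The windows of mt-Co2 are also all shared, and that gene had many counts, so what lies behind the 0 of mt-Nd4l was not tested and it is read here as no measure of expression.

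Like the mitochondrial transcripts, the summed epithelial markers were highest in CD11b+, but iCD8a and ILC1 stood in the opposite order. The 26 epithelial markers summed to 943 CPM in iCD8a, with 564 in ILC1 and 2790 in CD11b+, and none was at 0 in any library. By the counting rule 23 of them were lower and 1 higher in iCD8a than in CD11b+ (20.1% and 16.3% of all genes). In ILC1, 25 were lower and 0 higher than in CD11b+ (20.3% and 16.5% of all genes). Their median log2 ratios were −3.13 (iCD8a over CD11b+) and −3.18 (ILC1 over CD11b+). In the same libraries the mitochondrially encoded members summed to 14350 (iCD8a), 20286 (ILC1) and 98565 (CD11b+) CPM. Between iCD8a and ILC1 the median log2 ratio of the epithelial markers was 0.05, equal to that of all genes, with 16 of 26 above 0. The 2 counted as higher in iCD8a were Cdh17 and Epcam, 7.69% of the markers, where 8.67% of all genes were. They had 193 and 154 CPM in iCD8a, against 19.1 and 31.3 CPM in ILC1, so the larger sum in iCD8a came mostly from them. The part of epithelial RNA in the mitochondrial levels was not tested.

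Most nuclear-encoded members were higher in iCD8a than in ILC1, by a small margin that varied between members, with log2 ratios from −0.46 to 1.24. Their median log2 ratio was 0.55 (a fold of 1.47), against 0.05 over all genes tested, and 81 of 84 lay above 0, against 52.9% of all genes. By the counting rule 4 of 84 were higher in iCD8a, where 8.67% of all genes were, and 0 were lower, where 9.87% of all genes were. The share counted was thus no greater than the background, and the difference was spread over nearly all members at less than 2-fold. The 3 members below 0 were Ndufa4, the assembly factor Ndufaf4 and the ATP synthase subunit Atp5d.

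The 4 members that passed all belong to complex I or its assembly, which hold 36 and 7 of the 84 nuclear members tested. Uqcr11 of complex III, at 1.98-fold (1.67 to 2.34), was just outside the rule, so 4 genes do not set complex I apart. Ndufa5, an accessory subunit, had 23.4 CPM in iCD8a, with 10.1 in ILC1 and 14.2 in CD11b+, 2.32-fold higher in iCD8a than in ILC1 (1.98 to 2.72). Ndufaf8, an assembly factor, had 16.3 (iCD8a), 6.86 (ILC1) and 11.6 (CD11b+) CPM, 2.37-fold higher in iCD8a than in ILC1 (1.96 to 2.89). Ndufs5 and Ndufs6, further accessory subunits, had 19.0 and 23.5 CPM in iCD8a, 8.68 and 11.7 CPM in ILC1, and 19.1 and 22.05 CPM in CD11b+. Of the windows of Ndufs5 41.2% are shared with the processed pseudogene BC002163, and of those of Ndufs6 14.6% with Ndufs6b, so both levels are uncertain.

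Set beside CD11b+, the iCD8a levels of Ndufs5 and Ndufs6 were near-level, so ILC1 was the low library for both. Ndufs5 in iCD8a was 0.994 times its level in CD11b+ (0.875 to 1.13) and Ndufs6 was 1.07 times (0.948 to 1.20). Ndufs6, at 2.003-fold over ILC1 (1.73 to 2.33), was just inside the rule and outside it with DESeq2 factors (0.98 on the log2 scale) and upper-quartile factors (0.94), and the assembly factor Ndufaf3, at 1.99-fold (1.64 to 2.42), was just outside it. Of the 4 upstream windows printed above, those of Ndufa5, Ndufs5 and Ndufs6 hold the NRF-1 letters and that of Ndufaf8 the ETS letters. In the longer promoter windows Ndufs6 and Ndufaf8 also hold the YY1 letters. The 4 genes were picked by their folds, and the share of such 120-base windows over all genes was not counted. The 120-base window of Ndufa13, next by the interval bound nearest to 1, holds none of these letters.

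**Figure D3:**
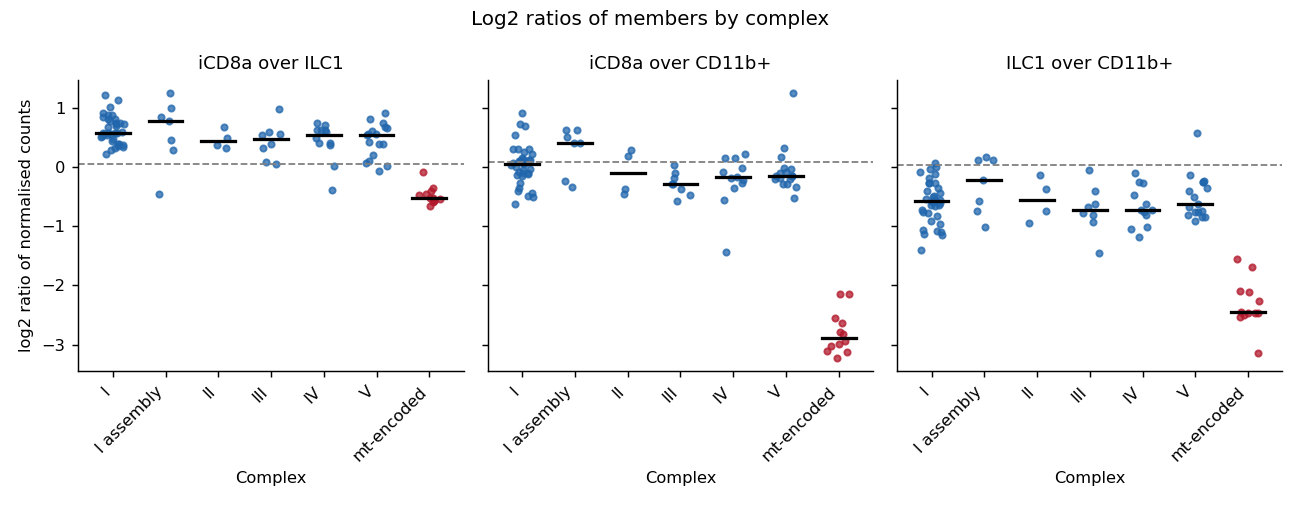
Log2 ratios of normalised counts (vertical axis) for members that passed 5 CPM in some library, grouped by complex, in the comparisons iCD8a over ILC1, iCD8a over CD11b+ and ILC1 over CD11b+. Blue points are nuclear-encoded and red points mitochondrially encoded members, black lines are medians and the dashed line is the median of all genes tested. Nuclear medians lie above the dashed line in the left panel and below it in the right panel, and the mitochondrial medians are −0.53, −2.88 and −2.45.

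Between ILC1 and CD11b+ the nuclear members ran the other way. Their median log2 ratio was −0.62 (1.53-fold lower in ILC1), against 0.04 over all genes, and 6 of 84 lay above 0, against 51.7% of all genes. The counting rule found 11 of 84 lower in ILC1 (20.3% of all genes) and 0 higher (16.5% of all genes). Between iCD8a and CD11b+ the median was −0.09 against 0.08 over all genes, with 34 of 84 above 0. Here 1 member was higher in iCD8a (16.3% of all genes) and 1 was lower (20.1% of all genes). The sign of that median rests on the scaling, since it was 0.15 without TMM factors, when the median of all genes was 0.32. The 3 comparisons share libraries, so the low ILC1 values enter both of its comparisons.

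Complex I, the entry point for electrons from NADH, had all 36 of its nuclear members above 0 for iCD8a over ILC1 and 2 of 36 above 0 for ILC1 over CD11b+. Its 7 core subunits, which hold the flavin and iron-sulfur clusters, had 0.38 as their median log2 ratio (iCD8a over ILC1), and its 29 accessory subunits 0.67. The core subunit Ndufs1 had 65.1 CPM in iCD8a, with 52.5 in ILC1 and 60.1 in CD11b+, and the flavin-binding Ndufv1 had 82.2 (iCD8a), 64.8 (ILC1) and 68.8 (CD11b+) CPM. The accessory subunit Ndufa8 had 40.2 (iCD8a), 23.5 (ILC1) and 62.1 (CD11b+) CPM, 2.64-fold lower in ILC1 than in CD11b+ (2.39 to 2.92). Ndufb8, an accessory subunit of the membrane arm, had 43.6 (iCD8a), 26.5 (ILC1) and 58.9 (CD11b+) CPM and was 2.22-fold lower in ILC1 than in CD11b+ (2.02 to 2.45). The further complex I members lower in ILC1 were Ndufb4, Ndufc1, Ndufc2 and Ndufs5, by 2.09 to 2.20-fold, and the assembly factor Ndufaf7, by 2.03-fold.

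Of the 29 complex I accessory subunits, 16 lay above 0 for iCD8a over CD11b+ and all 29 for iCD8a over ILC1. Ndufa13, also known as GRIM-19, had 117 CPM in iCD8a, with 64.9 in ILC1 and 61.9 in CD11b+. Its iCD8a level was higher by folds of 1.799 over ILC1 (1.69 to 1.92) and 1.88 over CD11b+ (1.774 to 2.002). Of its windows 28.5% are shared, most of them with the overlapping kinase gene Tssk6, so its level is uncertain. Ndufv3 had 46.1 (iCD8a), 27.7 (ILC1) and 28.5 (CD11b+) CPM, and Ndufa10 had 116 (iCD8a), 79.7 (ILC1) and 79.6 (CD11b+) CPM. None of these folds reached 2. Relative to transcript length, Ndufa6 had the highest level of the nuclear complex I members, at 119 CPM per kilobase in iCD8a, with 91.1 in ILC1 and 116 in CD11b+. Ndufab1, an acyl carrier protein, had the lowest, at 4.33 CPM per kilobase in iCD8a, with 3.57 in ILC1 and 5.26 in CD11b+.

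For the 7 complex I assembly factors tested, median log2 ratios were 0.78 (iCD8a over ILC1), 0.40 (iCD8a over CD11b+) and −0.23 (ILC1 over CD11b+). Ndufaf4 differed from the rest, at 6.22 CPM in iCD8a, with 8.54 in ILC1 and 7.87 in CD11b+. Ndufaf5 had 9.86 (iCD8a), 8.09 (ILC1) and 7.44 (CD11b+) CPM. The eighth, Ndufaf6, did not reach 5 CPM, with 63 counts in iCD8a, 53 in ILC1 and 106 in CD11b+.

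Complex II, which oxidises succinate and is part of the citric acid cycle, had no member past the rule in any pair. Sdha, the flavoprotein, had 249.2 CPM in iCD8a, with 200 in ILC1 and 219 in CD11b+. Sdhb, the iron-sulfur subunit, had 57.7 (iCD8a), 44.6 (ILC1) and 74.9 (CD11b+) CPM, and the membrane anchors Sdhc and Sdhd had 86.2 and 62.9 CPM in iCD8a, 54.1 and 44.7 CPM in ILC1, and 70.5 and 86.3 CPM in CD11b+. ILC1 was the lowest library for all 4 genes, while iCD8a and CD11b+ changed places between Sdha and Sdhc on one side and Sdhb and Sdhd on the other. Sdhd came nearest to the rule, 1.93-fold lower in ILC1 than in CD11b+ (1.79 to 2.08).

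Complex III, which passes electrons from ubiquinol to cytochrome c, had 8 of 8 nuclear members above 0 for iCD8a over ILC1, with a median log2 ratio of 0.46. Uqcr11, a small subunit, had 18.6 CPM in iCD8a, with 9.41 in ILC1 and 25.8 in CD11b+, 2.75-fold lower in ILC1 than in CD11b+ (2.35 to 3.22). Uqcrfs1, the Rieske iron-sulfur protein, had 73.8 (iCD8a), 71.1 (ILC1) and 110 (CD11b+) CPM and was 1.49-fold lower in iCD8a (1.40 to 1.58) and 1.54-fold lower in ILC1 (1.45 to 1.64) than in CD11b+. The hinge protein gene Uqcrh was level, at 94.3 (iCD8a), 89.2 (ILC1) and 92.8 (CD11b+) CPM. Relative to transcript length, Uqcrq, an accessory subunit, had the lowest level of the nuclear members of the complex, at 29.6 CPM per kilobase in iCD8a, with 20.1 in ILC1 and 38.4 in CD11b+. The core proteins Uqcrc1 and Uqcrc2 had 124 and 130.1 CPM in iCD8a, 94.8 and 105 CPM in ILC1, and 152 and 140 CPM in CD11b+.

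Complex IV, cytochrome c oxidase, had 11 of 12 tested nuclear members above 0 for iCD8a over ILC1 and 0 of 12 above 0 for ILC1 over CD11b+. Cox5a had 103 CPM in iCD8a, with 67.2 in ILC1 and 152 in CD11b+, 2.27-fold lower in ILC1 than in CD11b+ (2.14 to 2.41), and shared 32.05% of its windows with other genes. Cox6b1 had 87.3 (iCD8a), 52.4 (ILC1) and 106 (CD11b+) CPM and was 2.02-fold lower in ILC1 (1.88 to 2.16). Cox7a2l, which joins complexes III and IV into supercomplexes, had 202 (iCD8a), 156 (ILC1) and 260 (CD11b+) CPM and passed the rule in no pair. Relative to transcript length, Cox8a had the highest level of the nuclear members of the complex, at 351 CPM per kilobase in iCD8a, 229 in ILC1 and 318 in CD11b+. Cox7b had the lowest mean over the libraries, at 73.7 CPM per kilobase in iCD8a, with 45.3 in ILC1 and 74.7 in CD11b+.

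Between iCD8a and ILC1, Ndufa4 went against the other 11 tested members of complex IV. It had 27.3 CPM in iCD8a, with 35.6 in ILC1 and 73.7 in CD11b+, so iCD8a was the lowest library and CD11b+ the highest. It was 2.71-fold lower in iCD8a (2.48 to 2.96) and 2.07-fold lower in ILC1 (1.91 to 2.25) than in CD11b+, and 1.31-fold lower in iCD8a than in ILC1 (1.17 to 1.45). It was the one nuclear member counted as lower in iCD8a than in CD11b+, and none of the NRF-1, ETS or YY1 letters were found in its promoter window.

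The alternative isoforms of complex IV subunits among the members were scarce in all 3 libraries. Cox4i2 and Cox8b, isoforms known from lung and from heart and muscle, and Cox7b2 and Cox8c, known from testis, had 0 counts in each library, and Ndufa4l2, a paralog of Ndufa4 induced by hypoxia, had 0 counts in iCD8a, 1 in ILC1 and 0 in CD11b+. Cox6b2, known from testis, had 10 counts in iCD8a, 3 in ILC1 and 71 in CD11b+, or 0.423 (iCD8a), 0.136 (ILC1) and 2.52 (CD11b+) CPM. Cox7a1, the heart and muscle isoform, had 23 counts in iCD8a, 4 in ILC1 and 49 in CD11b+, or 0.973 (iCD8a), 0.182 (ILC1) and 1.74 (CD11b+) CPM. Their common counterparts Cox4i1, Cox7a2 and Cox8a had 198, 62.3 and 193 CPM in iCD8a, 149, 46.9 and 126 CPM in ILC1, and 230.2, 55.9 and 175 CPM in CD11b+.

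**Figure D4:**
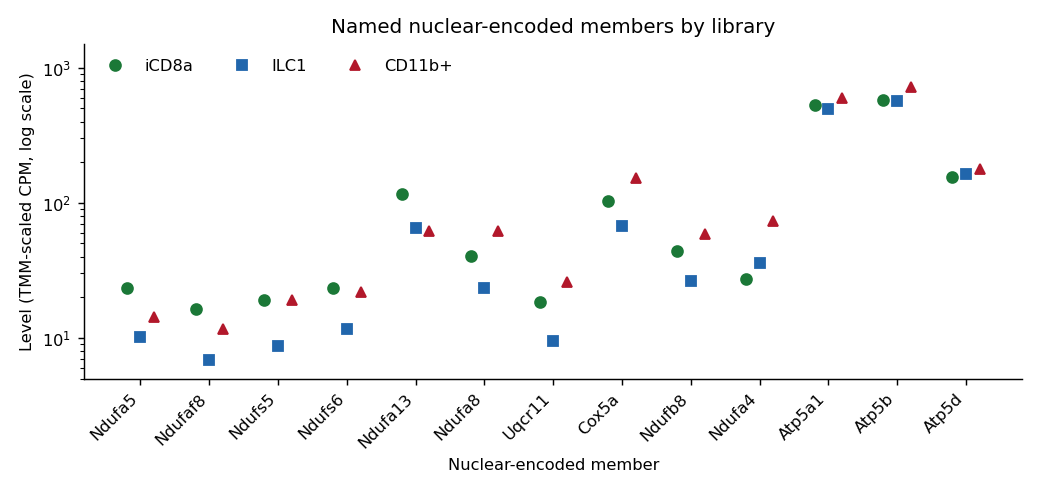
Levels of 13 nuclear-encoded members (TMM-scaled CPM, logarithmic vertical axis) in the iCD8a, ILC1 and CD11b+ libraries, 1 point per library. ILC1 is lowest for the members from Ndufa5 to Ndufb8 apart from Ndufa13, Ndufa4 is lowest in iCD8a at 27.3 CPM, and the ATP synthase subunit Atp5a1 lies between 499 and 594 CPM in all 3.

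Complex V, the ATP synthase, had 16 of 17 nuclear members above 0 for iCD8a over ILC1. The 5 subunits of the F1 head had 0.09 as median log2 ratio for iCD8a over ILC1, and the 11 subunits of the stalks, membrane sector and c-ring had 0.55, with overlap between these groups. The head subunits Atp5e and Atp5c1 had log2 ratios of 0.65 and 0.38, and the c-ring genes Atp5g2 and Atp5g3 had 0.07 and 0.20. Atp5a1 and Atp5b, the α and β subunits that bind nucleotides, were near-level, at 532 and 573 CPM in iCD8a, 499 and 567 CPM in ILC1, and 594 and 722 CPM in CD11b+. Their folds of iCD8a over ILC1 were 1.07 (1.04 to 1.10) and 1.01 (0.986 to 1.04). Atp5d, another head subunit, had 156 (iCD8a), 163 (ILC1) and 179 (CD11b+) CPM, and its direction between iCD8a and ILC1 changed without TMM factors. Among the peripheral parts, Atp5f1 of the peripheral stalk had 146 (iCD8a), 87.4 (ILC1) and 148 (CD11b+) CPM and Atp5k of the membrane sector had 33.6 (iCD8a), 17.9 (ILC1) and 30.0 (CD11b+) CPM.

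Among the nuclear members of complex V, 1 passed the rule. Atp5s, known as coupling factor B and not a structural subunit of the purified enzyme, had 7.15 CPM in iCD8a, with 4.50 in ILC1 and 3.01 in CD11b+. It was 2.37-fold higher in iCD8a than in CD11b+ (1.82 to 3.12), and rests on 169 counts in iCD8a and 85 in CD11b+, with 99 in ILC1. The c-ring subunit is encoded by 3 genes whose mature proteins are identical, and their proportions were alike: Atp5g1, Atp5g2 and Atp5g3 took 10.9%, 15.1% and 74.0% of c-ring counts in iCD8a, 9.51%, 16.6% and 73.9% in ILC1, and 13.2%, 14.6% and 72.2% in CD11b+. All windows of Atp5g2 also occur in a processed pseudogene, so its share is uncertain, and Atp5l, Cox7c, Atp5h and Atp5o shared between 50.3% and 84.8% of windows.

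Coding length moved with the ratios in the comparisons that involve ILC1. Across the 84 nuclear members, Spearman's correlation of the log2 ratio with coding length was −0.31 (iCD8a over ILC1), 0.07 (iCD8a over CD11b+) and 0.37 (ILC1 over CD11b+). Across all 10712 protein-coding genes tested it was −0.17, 0.09 and 0.20 in the same comparisons. The signs were the same, and the values were weaker in the comparisons with ILC1 only. With transcript length, the signs differed for iCD8a over CD11b+, at −0.02 in the members and 0.10 in all protein-coding genes. Members share libraries and are not independent, and the part of length in the differences was not tested. Within the 48 members with under 500 coding bases the median log2 ratio was 0.59 for iCD8a over ILC1 and −0.74 for ILC1 over CD11b+, and within the 36 longer members it was 0.46 and −0.56.

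Other genes of the respiratory system were set beside the members as lists. Of 76 mitochondrial ribosomal proteins, which translate the mitochondrial messages, 3 were higher and 0 lower in iCD8a than in ILC1 (8.67% and 9.87% of all genes), and 1 was higher and 10 lower in ILC1 than in CD11b+ (16.5% and 20.3% of all genes). None of these counts exceeded the share over all genes. Their median log2 ratios were 0.44 (iCD8a over ILC1), 0.05 (iCD8a over CD11b+) and −0.48 (ILC1 over CD11b+), the same signs as for the nuclear members where ILC1 is compared. The 79 cytosolic ribosomal proteins, also short and abundant, had medians of −0.18, −0.34 and −0.10 in the same comparisons. Between iCD8a and ILC1, 0 were counted in either direction (8.67% of all genes were higher and 9.87% lower in iCD8a). Set against CD11b+, 3 were lower in iCD8a and 1 was lower in ILC1, shares far below the 20.1% and 20.3% of all genes. None was higher in iCD8a or ILC1 than in CD11b+ (16.3% and 16.5% of all genes). The medians of the nuclear members and the cytosolic ribosomal proteins thus lay on opposite sides of 0 between iCD8a and ILC1.

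Assembly factors outside the member names had 0.45 as median log2 ratio for iCD8a over ILC1, with 6 of 40 higher and 1 lower in iCD8a (8.67% and 9.87% of all genes). They had 5 higher and 2 lower in iCD8a than in CD11b+ (16.3% and 20.1% of all genes), and 1 higher and 6 lower in ILC1 than in CD11b+ (16.5% and 20.3%), shares below those over all genes. The 6 higher in iCD8a than in ILC1 were Cmc2, Coa3 and Pet100, which act on complex IV, Sdhaf4 on complex II, Tmem126b on complex I, and the ATP synthase inhibitor Atpif1. Tmem126b had 16.5 CPM in iCD8a, with 5.91 in ILC1 and 7.09 in CD11b+. Atpif1, which blocks ATP hydrolysis by complex V, had 25.6 (iCD8a), 10.7 (ILC1) and 52.7 (CD11b+) CPM and so was highest in CD11b+. Sdhaf1, needed for the iron-sulfur clusters of Sdhb, was the one counted as lower in iCD8a than in ILC1, at 4.19 CPM in iCD8a against 15.6 CPM in ILC1, with 7.02 CPM in CD11b+.

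Among 20 tested genes of coenzyme Q synthesis and electron entry, 3 were higher and 2 lower in iCD8a than in ILC1, where 8.67% and 9.87% of all genes were, with a median of 0.26 on the log2 scale. Against CD11b+, 1 was higher and 2 lower both in iCD8a (16.3% and 20.1% of all genes) and in ILC1 (16.5% and 20.3%). Gpd2, the mitochondrial glycerol-3-phosphate dehydrogenase that feeds electrons to ubiquinone, had 175 CPM in iCD8a, with 68.2 in ILC1 and 140 in CD11b+. Coq8a, an atypical kinase needed for coenzyme Q synthesis, ran the other way, at 19.6 (iCD8a), 144 (ILC1) and 16.2 (CD11b+) CPM, while its paralog Coq8b had 33.9 (iCD8a), 12.2 (ILC1) and 19.9 (CD11b+) CPM. The paralogs thus ran in opposite directions between iCD8a and ILC1. Cytochrome c itself, encoded by Cycs, had 22.9 (iCD8a), 30.3 (ILC1) and 49.8 (CD11b+) CPM, and Cyc1, the cytochrome c1 of complex III, had 64.7 (iCD8a), 61.3 (ILC1) and 82.8 (CD11b+) CPM.

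Of 26 tested genes of the machinery of mitochondrial DNA and RNA, 0 were lower and 2 higher in iCD8a than in CD11b+ (20.1% and 16.3% of all genes). In ILC1 0 were lower and 3 higher than in CD11b+ (20.3% and 16.5% of all genes). The medians of their log2 ratios were 0.13 (iCD8a over CD11b+) and 0.09 (ILC1 over CD11b+). Tfam, which packages mitochondrial DNA and starts its transcription, had 51.8 CPM in iCD8a, with 94.8 in ILC1 and 22.1 in CD11b+. It was lowest in CD11b+, where the mitochondrial transcripts were highest, but both Tfam and these transcripts were lower in iCD8a than in ILC1. A link between them was not tested. Polrmt, the mitochondrial RNA polymerase, had 19.5 (iCD8a), 16.7 (ILC1) and 15.5 (CD11b+) CPM. Polg2, the accessory subunit of the mitochondrial DNA polymerase, had 29.5 (iCD8a), 114 (ILC1) and 31.9 (CD11b+) CPM and was the 1 gene of the list counted as lower in iCD8a than in ILC1.

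The citric acid cycle list had 4 of 25 genes lower in iCD8a and 6 lower in ILC1 than in CD11b+, near the 20.1% and 20.3% of all genes, with medians on the log2 scale of −0.29 (iCD8a) and −0.44 (ILC1). Mdh2, mitochondrial malate dehydrogenase, had 135 CPM in iCD8a, with 117 in ILC1 and 1043 in CD11b+, and Cs, citrate synthase, had 153 (iCD8a), 133 (ILC1) and 285 (CD11b+) CPM. Idh2, the NADP-dependent isocitrate dehydrogenase, was low in ILC1 alone and was the 1 gene of the list counted as higher in iCD8a than in ILC1, at 88.5 CPM in iCD8a, with 11.8 in ILC1 and 94.7 in CD11b+. Of 14 tested genes of nucleotide exchange, uncoupling and inner membrane carriers, 2 were lower in iCD8a and 3 lower in ILC1 than in CD11b+, also near those shares. Their median log2 ratios were 0.33 (iCD8a over ILC1), −0.33 (iCD8a over CD11b+) and −0.75 (ILC1 over CD11b+). Ucp2, a carrier of the uncoupling protein family, had 682 (iCD8a), 467 (ILC1) and 1099 (CD11b+) CPM.

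Of 18 tested regulators of respiratory genes, 0 were higher and 5 lower in iCD8a than in ILC1 (8.67% and 9.87% of all genes), and 0 higher and 6 lower in iCD8a than in CD11b+ (16.3% and 20.1% of all genes). The median log2 ratio of iCD8a was −0.43 over ILC1 and 0.02 over CD11b+. Myc, a growth regulator that acts on mitochondrial genes among many others, had 13.03 CPM in iCD8a, with 273 in ILC1 and 17.7 in CD11b+. Hif1a, the oxygen-regulated factor, had 89.2 (iCD8a), 243 (ILC1) and 360.1 (CD11b+) CPM, and Esrra, an orphan nuclear receptor that acts on respiratory genes, had 35.2 (iCD8a), 33.4 (ILC1) and 73.6 (CD11b+) CPM. The coactivator gene Ppargc1a was scarce, at 0.635 (iCD8a), 3.45 (ILC1) and 0.957 (CD11b+) CPM, and Nrf1, whose product binds the letters counted in the promoters above, had 41.0 (iCD8a), 58.2 (ILC1) and 31.4 (CD11b+) CPM.

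**Figure D5:**
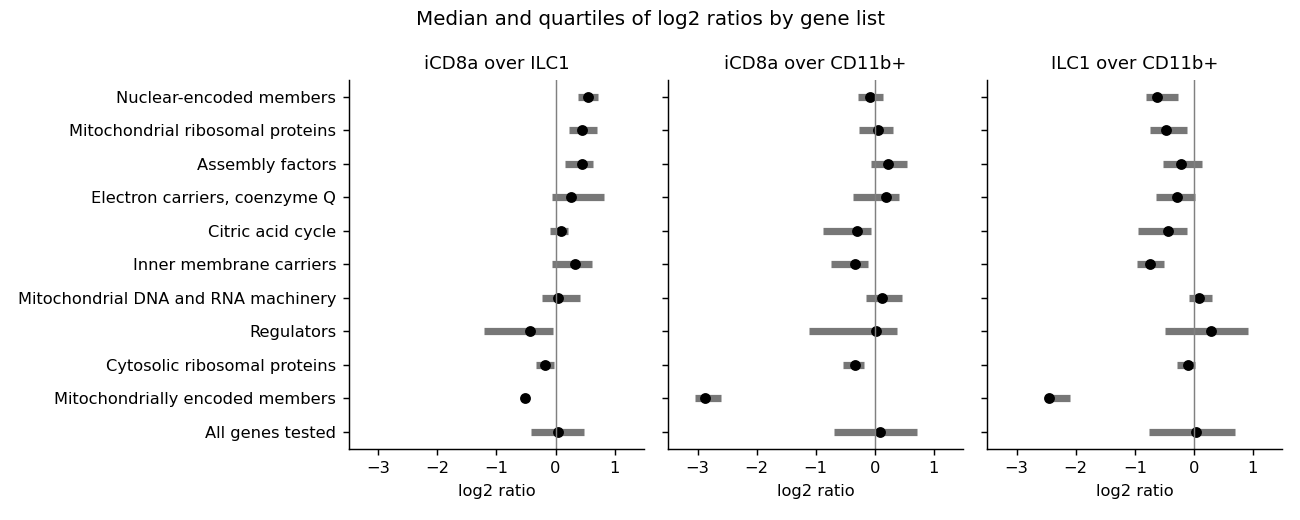
Median (point) and quartiles (bar) of log2 ratios of normalised counts (horizontal axes) for the nuclear and mitochondrially encoded members, 8 related gene lists and all genes tested, in the 3 comparisons. Nuclear members, mitochondrial ribosomal proteins and assembly factors have medians above 0 for iCD8a over ILC1 and below 0 for ILC1 over CD11b+. The same holds for electron carriers, the citric acid cycle and inner membrane carriers. The mitochondrially encoded members lie at −2.88 and −2.45 in the comparisons with CD11b+.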

How the data were processed

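RNA from 3 sorted populations, iCD8a, ILC1 and CD11b+ (1 library each, grouped by the cell type label), was analysed from the deposited raw read counts per Ensembl gene. Per the series' design text, the authors aligned reads with TopHat and counted them with HTSeq. CASAVA 1.9 and TopHat2 are named in the submitters' processing notes. The sources used here do not state the build, annotation or strand setting. The 5 rows per file that name no gene stayed out of library sizes: reads in no gene were 9.31% (iCD8a), 11.01% (ILC1) and 8.56% (CD11b+) of everything tallied. Multiply aligned reads are tallied apart from the genes in the files, so genes with near-identical copies have uncertain levels.

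Ensembl IDs were given symbols through GENCODE's mouse set (35449 of 37224 found) and promoter sequences from RefSeq (GRCm38.p6) matched by symbol. TMM factors (edgeR 4.0.16, R 4.3.3) came to 1.09 (iCD8a), 0.992 (ILC1) and 0.925 (CD11b+). With no residual degrees of freedom, edgeR and DESeq2 1.42.0 served for scaling alone and no p-value was computed. Folds have 95% exact conditional binomial (Clopper-Pearson) intervals, and shares have Wilson intervals. Since no molecular identifiers are described, both kinds of interval, like the floor of 3 counts used for a gene at 0, cover counting error only. Log2 ratios used a prior count of 0.5. Levels per kilobase used 1 representative transcript per gene. Python 3.11.15 with numpy 2.4.6, scipy 1.17.1, pandas 2.3.3 and matplotlib 3.10.9 was used. The steps were tested on simulated data.

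Members, lists and tests were chosen with earlier results of these data known. Named were all mitochondrially encoded members, all Sdh genes, isoform families, 5 nuclear members for each pair and direction, taken by the interval bound nearest to 1 among those with 5 CPM, the extremes of each complex by length-scaled level, members at 0, and list members past the rule as examples. Other members were named after their values were seen, to show a complex. Alternatives were other scalings, minimums, folds, prior counts, denominators and member sets. Members with under 10% shared windows were added after seeing the data.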

Additional observations from a re-analysis of the deposited data

Results flagged for a closer look

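Signals were also counted in genes outside the member names. Cox6a2, the muscle-type isoform of a complex IV subunit that was left out of the members, had 428 counts in iCD8a, 43 in ILC1 and 24 in CD11b+, or 18.1, 1.95 and 0.851 CPM. The 11 pseudogenes with names of the member pattern had 14 counts in iCD8a, 7 in ILC1 and 25 in CD11b+ in all. The ribosomal RNA genes of the mitochondrial genome took 0.0342% of gene counts in iCD8a, 0.0674% in ILC1 and 0.382% in CD11b+, the same order as the mitochondrially encoded members.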

How the results depend on the processing

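No paired analysis was possible because each population has 1 library. The 3 libraries share no replicates, and counting error is the one error given. Without TMM factors the median of all genes moved to 0.19 (iCD8a over ILC1), 0.32 (iCD8a over CD11b+) and 0.14 (ILC1 over CD11b+). The gap between the nuclear median and that of all genes was 0.50, −0.17 and −0.66 in these comparisons. A scaling factor shifts all genes of a comparison alike, so this gap is no check on the scaling. Under the 5 scalings, 78 to 82 of 84 nuclear members lay above 0 for iCD8a over ILC1. Nuclear members higher in iCD8a than in ILC1 numbered 10 unscaled, 3 with DESeq2 factors and 3 with upper-quartile factors (Ndufs6 then missed a fold of 2), 2 at a minimum of 20 CPM and 0 at a fold of 4, against 4. Those higher in iCD8a than in CD11b+ numbered 2 unscaled, 0 at 20 CPM and 0 at a fold of 4, against 1, and those lower numbered 2 at a minimum of 1 CPM and 0 at a fold of 4, against 1. Those lower in ILC1 than in CD11b+ numbered 6 unscaled, 6 with upper-quartile factors and 0 at a fold of 4, against 11. The nuclear median for iCD8a over CD11b+ turned from −0.09 to 0.15 unscaled.

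Mitochondrial medians kept their direction under every alternative run. For iCD8a over ILC1 they were −0.39 unscaled, −0.59 with upper-quartile factors and −0.55 over members with under 10% shared windows. For iCD8a over CD11b+ they were −2.64 unscaled, −2.90 with DESeq2 factors, −2.86 with upper-quartile factors and −2.81 over little-shared members. For ILC1 over CD11b+ they were −2.35 unscaled, −2.37 with upper-quartile factors and −2.28 over little-shared members.

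Mitochondrial shares in iCD8a, ILC1 and CD11b+ were 1.59%, 2.05% and 9.28% of protein-coding counts, 0.980%, 1.08% and 5.47% of all rows, and 1.86%, 2.31% and 10.6% without the 50 most abundant other genes. Nuclear shares were 0.698%, 0.486% and 0.642%, then 0.431%, 0.256% and 0.378%, then 0.818%, 0.548% and 0.731%. The mitochondrial to nuclear ratio was 2.31, 4.27 and 14.6 without assembly factors, 1.62, 3.03 and 10.9 without mt-Co1, and 0.960, 1.78 and 6.14 over little-shared members. The order of the libraries was the same in each, but every denominator of these shares kept the mitochondrial counts. In TMM-scaled sums the nuclear members were highest in CD11b+ instead of iCD8a. Of 150 folds of named members, 102 left their counting interval unscaled, 39 with upper-quartile factors, 11 with DESeq2 factors and 0 with library sizes that omit the mitochondrial chromosome, and no counted one changed direction.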

Other observations

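AA467197, the mouse counterpart of human C15orf48, encodes a paralog of Ndufa4 that in human cells can take its place in complex IV. It was looked up after the values of Ndufa4 were seen and is no member. It had 34.6 CPM in iCD8a, with 12.5 in ILC1 and 11.7 in CD11b+, while Ndufa4 had 27.3 (iCD8a), 35.6 (ILC1) and 73.7 (CD11b+) CPM. AA467197 was thus highest, and Ndufa4 lowest, in iCD8a, while AA467197 stood close together in ILC1 and CD11b+.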
